A study of Mus musculus with 11 samples.

Results

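The genes described here are the 6 genes that encode the retinoic acid receptors and their retinoid X receptor partners: Rara, Rarb, Rarg, Rxra, Rxrb and Rxrg. They were chosen by name out of 21883 protein-coding genes, not by a rule on their values, but with earlier results of these data known. All 6 were found in the RefSeq table. Peaks of Myc-tagged RARα, the product of Rara, were taken over each whole gene and 100 kb on both sides. The peaks come from CUT&RUN, in which an antibody leads a nuclease to a bound protein so that the DNA around it is released and sequenced. The cells were cortical progenitors of mouse embryos at E14, enriched with magnetic beads for the surface protein Prom1. The libraries were 3 from Foxc1 mutant embryos and 3 from control embryos, all made with a Myc-tag antibody, and the 5 isotype antibody libraries (2 mutant, 3 control) were not analysed here. The transcription factor Foxc1 is required for meninges to develop, and the title of the series names retinoic acid made by this tissue. The sources used here do not give the Foxc1 allele, the genotype of the controls, the construct that carries the tag or any pooling of embryos. Peak positions cannot check the cell type. Whether replicates are separate embryos is not stated, and p-values then measure only the spread between these libraries, which may be technical.

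Retinoic acid receptors bind DNA as pairs with retinoid X receptors. The pairs sit on direct repeats of a short core sequence, most often with 5 bases between the copies, and also with 2 or 1. Without retinoic acid the pair holds corepressors, and with it coactivators. Rarb is a classical target of this system: its promoter carries a direct repeat through which retinoic acid raises its expression.

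The listed promoter of Rarb held such a repeat, and no library had a peak over it. The core copies searched were AGGTCA together with GGGTCA, then AGTTCA and also GGTTCA, on both strands in the 250 bases before each RefSeq start. The 6 genes have 13 starts in the table, which leave out the 5′ ends of the gene spans of Rara, Rarb and Rxra. Of these promoters 1, that of Rarb, held a direct repeat with a spacing of 5, 2 or 1. Its spacing was 5. Of all 21262 promoters, 0.0753% held a repeat of that spacing and 0.273% one of any of the 3 spacings. At least 1 core copy was found in 6 of the 13 promoters, against 36.5% of all promoters. The 4 promoters below are shown because Rarb holds the repeat, and because those of Rxrg, Rxrb and Rara had peaks over them. Capitals mark core copies, and the sequences run 5′ to 3′ on the strand of the gene (RefSeq, GRCm38.p6).
Rarb, chr14:16575477-16575726, minus strand: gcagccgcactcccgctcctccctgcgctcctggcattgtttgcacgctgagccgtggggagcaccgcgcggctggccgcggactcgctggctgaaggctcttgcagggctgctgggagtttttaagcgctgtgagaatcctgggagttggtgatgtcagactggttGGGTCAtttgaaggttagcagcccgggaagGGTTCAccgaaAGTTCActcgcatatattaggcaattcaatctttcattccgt
Rxrg, chr1:167618015-167618264, plus strand: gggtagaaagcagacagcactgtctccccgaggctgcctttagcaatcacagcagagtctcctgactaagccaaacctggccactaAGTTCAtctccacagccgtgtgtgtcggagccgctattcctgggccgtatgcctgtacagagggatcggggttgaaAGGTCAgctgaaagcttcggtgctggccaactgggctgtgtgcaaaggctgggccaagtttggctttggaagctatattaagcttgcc
Rxrb, chr17:34031562-34031811, plus strand: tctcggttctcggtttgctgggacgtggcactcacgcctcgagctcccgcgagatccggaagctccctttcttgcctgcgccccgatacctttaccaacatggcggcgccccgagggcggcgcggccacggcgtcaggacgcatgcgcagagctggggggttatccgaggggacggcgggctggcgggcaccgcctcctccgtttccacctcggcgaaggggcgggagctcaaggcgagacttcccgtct
Rara, chr11:98939461-98939710, plus strand: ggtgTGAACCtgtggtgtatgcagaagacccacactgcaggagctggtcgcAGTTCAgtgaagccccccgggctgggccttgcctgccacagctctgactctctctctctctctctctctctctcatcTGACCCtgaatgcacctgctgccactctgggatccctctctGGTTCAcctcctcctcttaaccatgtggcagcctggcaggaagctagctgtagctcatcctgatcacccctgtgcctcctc

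The Rarb repeat, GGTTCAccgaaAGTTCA at chr14:16575513-16575529, lies from 53 to 37 bases before the start. The peak nearest to it was 1353, 11003 and 738 bp away in mutant replicates 1, 2 and 3, and 11043, 161192 and 124928 bp away in control replicates 1, 2 and 3. The peaks close to it in mutant replicates 1 and 3 were 3 steps high, where a step is the smallest signal unit of a library and is worth a different signal in each. The distances were thus shorter in 2 mutant libraries than in any control. However, mutant replicate 2, with a far longer list than replicate 1, had its nearest peak about as far away as control replicate 1. Of all starts in the table, 6.74%, 93.2% and 50.55% were nearer to a peak than that of Rarb in mutant replicates 1, 2 and 3. In control replicates 1, 2 and 3 it was 62.6%, 71.3% and 91.1%. The short distance in mutant replicate 3 was thus near the median of its library. A region without a peak is not shown to be unbound, since the sources used here give no read depth. Of the 16 promoters in the table with a repeat of spacing 5, 0, 2 and 1 had a peak in mutant replicates 1, 2 and 3, and 2, 0 and 0 in control replicates 1, 2 and 3. For a repeat of any of the 3 spacings it was 0, 12 and 19 of 58 promoters in the mutant and 7, 0 and 0 in the control libraries, or 0%, 20.7% and 32.8% and 12.1%, 0% and 0%. The share of all promoters with a peak was 2.05%, 14.4% and 32.8% in the mutant and 14.2%, 0.216% and 0.32% in the control libraries.

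Peaks over the 13 listed promoters of the 6 genes were found in mutant libraries only, and several promoters shared a peak. A promoter was counted when a peak touched the 300 bases from 250 before to 50 after the start. Of the 13 promoters, 0, 4 and 5 had a peak in mutant replicates 1, 2 and 3, and 0, 0 and 0 in control replicates 1, 2 and 3. Over all promoters the shares were 2.05%, 14.4% and 32.8% in the mutant and 14.2%, 0.216% and 0.32% in the control libraries. The share of 5 of the 13, 38.5% in mutant replicate 3, was thus near its background. That of 4 of the 13, 30.8% in mutant replicate 2, was above its background of 14.4%, with both Rxrb promoters under a single peak. In control replicate 1 the background share of 14.2% would correspond to fewer than 2 promoters of 13. At the first promoter of Rxrb, a widely expressed retinoid X receptor, the peaks in mutant replicates 2 and 3 were 4 and 5 steps high, and that of mutant replicate 2 also reached its second promoter. Both peaks also lay over the neighbouring gene Slc39a7. At the second promoter of Rxrg, a retinoid X receptor of restricted expression, the peaks of mutant replicates 2 and 3 were 5 and 4 steps high. The printed Rxrb promoter holds no core copy, and that of Rxrg holds 2. Of the 4 Rara promoters, the first 3 lay under peaks of 5, 5 and 3 steps in mutant replicate 3 and the last under one of 5 steps in mutant replicate 2, the first pair sharing a single peak. These peaks of mutant replicate 3 also lay over another protein-coding gene that overlaps Rara. No peak lay over the listed promoters of Rarb, Rarg and Rxra in any library. A height of 5 steps exceeded 59.2% of the peaks of mutant replicate 3 and 65.3% of those of mutant replicate 2, so the peaks over listed promoters were not among the tall peaks of their libraries. Outside the list, the same 300 bases at the 5′ end of the Rara span, chr11:98927800, lay under peaks of mutant replicate 3 (7 steps) and control replicate 1 (11 steps). At the 5′ end of the Rarb span, chr14:17082331, they were touched by peaks of 3 steps in mutant replicates 2 and 3.

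**Figure D1:**
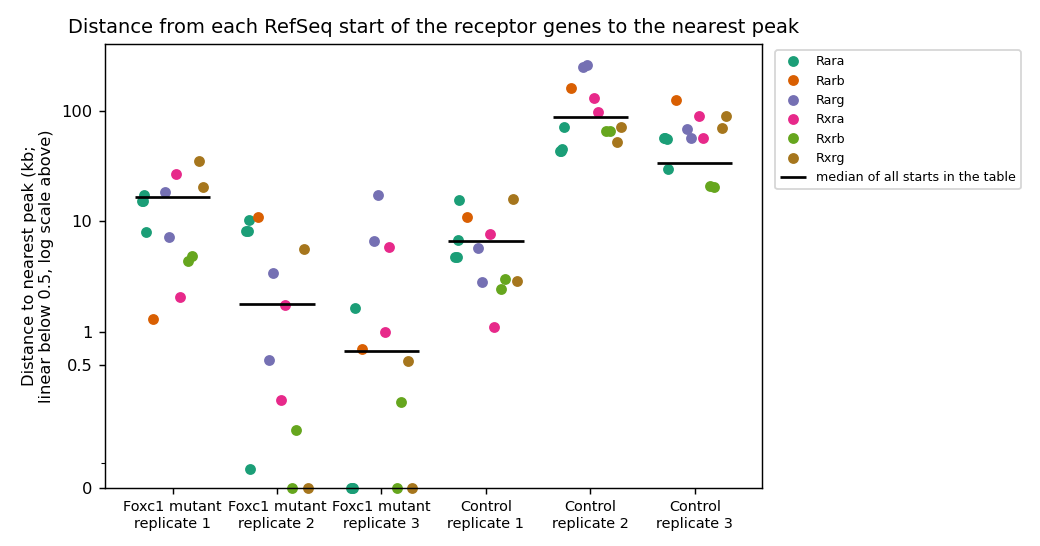
Distance in kb from each of the 13 RefSeq starts of the receptor genes to the edge of the nearest peak, by library, linear below 0.5 kb and on a log scale above. Points are starts, coloured by gene, and black bars are the median over all starts of the table; points at 0 lie inside a peak and occur in mutant replicates 2 and 3 alone, and the bars follow the length of the lists, from 0.67 kb in mutant replicate 3 to 88.0 kb in control replicate 2.

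The lists differ greatly in length, and the whole comparison has to be read against that. They held 54112, 410562 and 513290 peaks in mutant replicates 1, 2 and 3, and 86446, 11869 and 30273 in control replicates 1, 2 and 3. Each window count was therefore set against the number expected from the mean peak density of its own library. The windows of the 6 genes cover 2.06 Mb. They held 49, 296 and 368 peaks in mutant replicates 1, 2 and 3, or 1.17, 0.933 and 0.928 times the expected number. In control replicates 1, 2 and 3 they held 77, 6 and 19 peaks, or 1.15, 0.655 and 0.813 times the expected number. The ratio was above 1 in replicate 1 of both genotypes and below 1 in the other libraries, so the genotypes overlapped. Markers of neural progenitors had peaks within 5 kb of a gene end for 4, 8 and 8 of 8 genes in the mutant and 4, 0 and 0 in the control libraries; for meningeal fibroblasts these were 3, 5 and 7 of 7 and 4, 0 and 1, and for vessel cells 4, 5 and 3 of 6 and 3, 0 and 0. Over all genes these shares were 32.3%, 90.2% and 91.6% in the mutant and 58.4%, 6.65% and 16.1% in the control libraries. The part of other cell types in the receptor gene counts was not tested.

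Rara (gene 19401, chr11:98927800-98974942, plus strand) encodes the receptor whose tagged form was profiled. Its window held 8, 34 and 33 peaks in mutant replicates 1, 2 and 3, where 5.03, 38.1 and 47.7 were expected. In control replicates 1, 2 and 3 it held 12, 1 and 2 peaks, where 8.03, 1.10 and 2.81 were expected. Replicate 1 was high and replicate 3 low in both genotypes. Peaks inside Rara itself numbered 1, 6 and 8 in the mutant and 2, 0 and 0 in the control libraries, and the others lay over or between its 9 neighbours. The highest peak was over Rara in mutant replicates 2 and 3, at 7 steps in each. In mutant replicate 1 the highest, of 5 steps, were a peak over Top2a, a topoisomerase of dividing cells, and one near Wipf2. In control replicate 1 it lay upstream of Rara, between that gene and Cdc6, a replication licensing factor 828 bp away (16 steps). All peaks of control replicates 2 and 3 had 2 steps, over Wipf2 in the first and over Top2a and Igfbp4 in the second.

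Rarb (gene 218772, chr14:16430839-17082331, minus strand) encodes the receptor that retinoic acid itself induces, and it is by far the longest of the 6 genes, with 651493 bp. Its window held 15, 138 and 190 peaks in mutant replicates 1, 2 and 3, where 17.3, 131 and 164 were expected, and 35, 2 and 10 in control replicates 1, 2 and 3, where 27.7, 3.80 and 9.69 were expected. Only mutant replicate 1 and control replicate 2 stayed below their expected numbers. Most peaks lay inside the gene. In the 641 kb further than 5 kb from both ends there were 11, 91 and 134 peaks in mutant replicates 1, 2 and 3, or 0.843, 0.92 and 1.08 times the expected number. In control replicates 1, 2 and 3 there were 25, 1 and 7, or 1.20, 0.350 and 0.959 times. The log2 ratio of observed to expected peaks there, with 0.5 added to both, was −0.08 ± 0.18 in mutant and −0.32 ± 0.75 in control libraries (SD, n = 3 each; two-sided exact permutation p = 0.9, where 0.1 is the smallest that 3 against 3 can give). The difference of 0.24 turned to −0.18 without control replicate 2, which had a single peak there.

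The tallest peaks of the Rarb window did not lie at the repeat. The tallest height was reached inside the gene in all 6 libraries. These peaks were centred at −108, −227 and −413 kb from the start with the repeat, where minus is upstream, in mutant replicates 1, 2 and 3 (5, 8 and 9 steps), and at −466 kb in control replicate 1 (17 steps). In control replicates 2 and 3 the height of 2 and 3 steps was reached both inside Rarb, at −161 and −260 kb, and over Top2b. The peaks over Top2b overlapped each other at chr14:16402531-16402901. Top2b encodes a topoisomerase and is the sole other protein-coding gene of the window. The 100 kb downstream of Rarb, which hold Top2b, had 3, 21 and 34 peaks in the mutant and 8, 1 and 1 in the control libraries, where 2.03, 15.4 and 19.3 were expected in the mutant and 3.25, 0.446 and 1.14 in the control ones. The upstream 100 kb had 1, 23 and 17 peaks in the mutant and 2, 0 and 2 in the control libraries. The Top2b side was thus above its expected number in 5 of 6 libraries, all but control replicate 3.

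**Figure D2:**
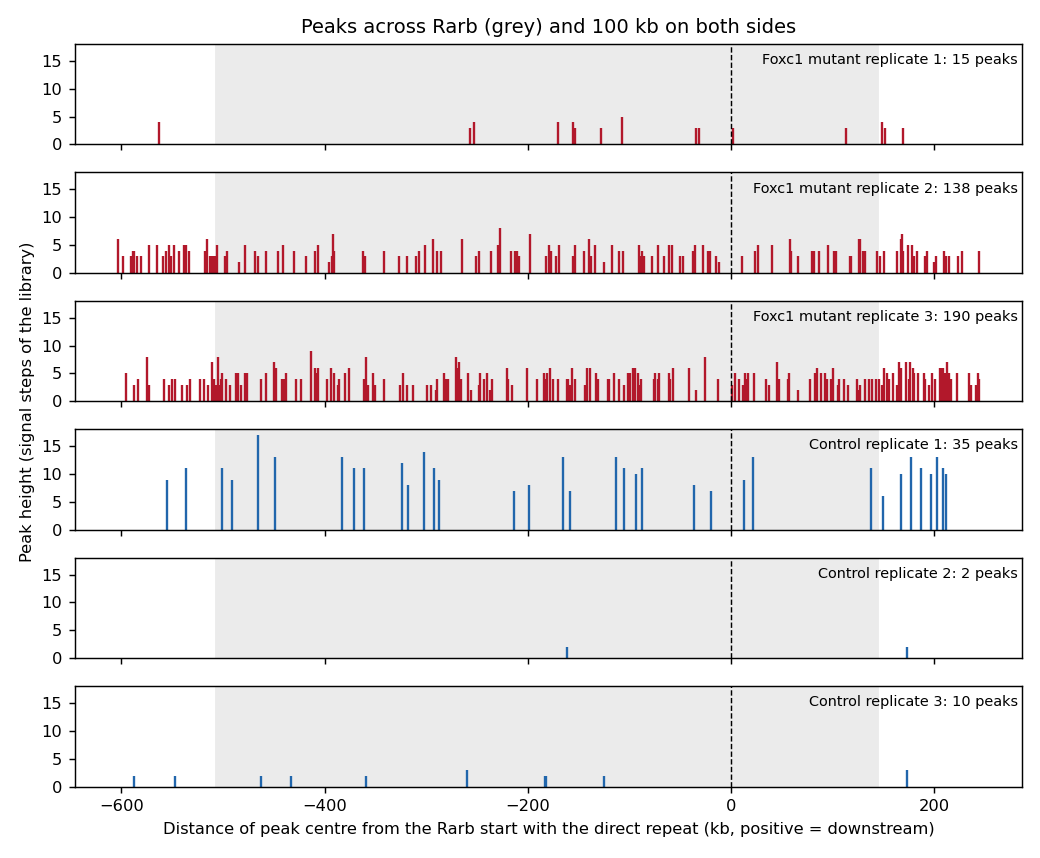
Peaks across Rarb and 100 kb on both sides in the 6 libraries, as vertical lines at the peak centre, with height in signal steps of the library on the y axis and distance in kb from the start with the direct repeat on the x axis. Grey marks the gene and the dashed line the start; the lines spread over the whole gene, and the densest tracks are those of mutant replicates 2 and 3, with 138 and 190 peaks.

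Rarg (gene 19411, chr15:102234938-102257522, minus strand) encodes the remaining retinoic acid receptor. Its window held 7, 35 and 31 peaks in mutant replicates 1, 2 and 3, where 4.53, 34.3 and 42.9 were expected, and 9, 0 and 1 in control replicates 1, 2 and 3, where 7.23, 0.993 and 2.53 were expected. It was the only window of the 6 with no peak in a library, control replicate 2, and the groups overlapped through control replicate 1. Inside the short gene there were 0, 3 and 1 peaks in the mutant and 1, 0 and 0 in the control libraries; that of control replicate 1 was the highest of its window, at 13 steps. The highest mutant peaks, of 5, 6 and 8 steps, lay between genes in replicate 1, between genes and over Itgb7, a leukocyte integrin subunit, in replicate 2, and over Itgb7 in replicate 3.

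Rxra (gene 20181, chr2:27676445-27763319, plus strand), a retinoid X receptor of most tissues, has no other protein-coding gene in its window, which held fewer peaks than expected in 5 of 6 libraries. It held 9, 25 and 32 peaks in mutant replicates 1, 2 and 3, where 5.83, 44.3 and 55.3 were expected, and 6, 1 and 2 in control replicates 1, 2 and 3, where 9.32, 1.28 and 3.26 were expected. Mutant replicate 1 was the exception, at 1.54 times its expected number. In mutant replicates 2 and 3 the counts were 0.565 and 0.578 times the expected ones. Of evenly spaced windows of the same width, 4.71% in mutant replicate 2 and 6.21% in mutant replicate 3 held as few or fewer peaks, and 5.86% and 9.19% of same-width windows centred on genes did. The highest peaks had 6, 8 and 8 steps in the mutant and 13, 2 and 3 steps in the control libraries. In mutant replicates 2 and 3, 13 of 25 and 16 of 32 peaks (52% and 50%) reached the median height of the library, against 70.3% and 75.9% of all peaks there, and in control replicate 1 it was 2 of 6, against 55.5%; in mutant replicate 1 it was 8 of 9, against 63.9%. That of mutant replicate 2 was centred at −3.79 kb from the first start, and that of control replicates 2 and 3 was a shared one at chr2:27806899-27807269, downstream of the gene.

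Rxrb (gene 20182, chr17:34031812-34038403, plus strand) lies in the gene-dense major histocompatibility region, with 14 other protein-coding genes in its window. That window held 5, 31 and 43 peaks in mutant replicates 1, 2 and 3, where 4.2, 31.9 and 39.8 were expected, and 9, 1 and 2 in control replicates 1, 2 and 3, where 6.71, 0.921 and 2.35 were expected. All 6 libraries were within a factor of 1.34 of the expected number. Control replicate 1 had 2 peaks of 13 steps there, its highest. That centred at −3.78 kb from the Rxrb start, over H2-Ke6 and Slc39a7, overlapped a peak of each of the 3 mutant libraries (4, 4 and 5 steps). Those 3 mutant peaks did not overlap one another.

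Rxrg (gene 20183, chr1:167598362-167639623, plus strand) shares its window with Lmx1a, a transcription factor of the roof plate. The window held 5, 33 and 39 peaks in mutant replicates 1, 2 and 3, where 4.91, 37.2 and 46.5 were expected, and 6, 1 and 2 in control replicates 1, 2 and 3, where 7.84, 1.08 and 2.74 were expected. Mutant replicate 1 had the tallest peak for its library among all 6 windows, 8 steps high and centred at −86.8 kb from the Rxrg start, taller than 99.4% of its peaks, and 2.89% of same-width windows held one as tall. Its number of peaks was 1.02 times the expected one in mutant replicate 1 and below the expected one in the other 5 libraries, as for Rxra.

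Between genotypes, no receptor gene window passed the test, and no gene did. limma, fitted on the log2 ratio of observed to expected peaks over all 21883 genes, called 0 genes at an adjusted p under 0.05 (0% higher and 0% lower), with 941 at an unadjusted p under 0.05. The groups did not overlap for 11.1% of all genes (4.6% higher and 6.53% lower in mutant libraries), but for none of the 6 receptor genes. The mean log2 ratio of Rarg was 0.05 ± 0.52 in mutant and −0.77 ± 0.96 in control libraries (SD, n = 3 each), a difference of 0.81 with a standard error of 0.61 (limma adjusted p = 0.847, exact permutation p = 0.3). For Rxra the means were −0.34 ± 0.80 and −0.48 ± 0.20 in mutant and control libraries (difference 0.14, standard error 0.59, limma adjusted p = 0.963). Rarb, Rxrg, Rara and Rxrb differed by 0.16, 0.14, −0.04 and 0.00, with standard errors between 0.39 and 0.46 and limma adjusted p between 0.942 and 0.999. The median over the 6 genes was 0.14, against 0.07 over all genes. All but that of Rarg were smaller than their standard errors, and a missed threshold does not show that the genotypes are alike. Single libraries moved some values: the difference of Rarg was 0.41 without control replicate 2 and 1.34 without control replicate 1; without control replicate 2 the difference of Rarb was −0.16, and without mutant replicate 1 that of Rxra was −0.32. The direction of each of the 6 turned under at least 1 alternative setting.

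**Figure D3:**
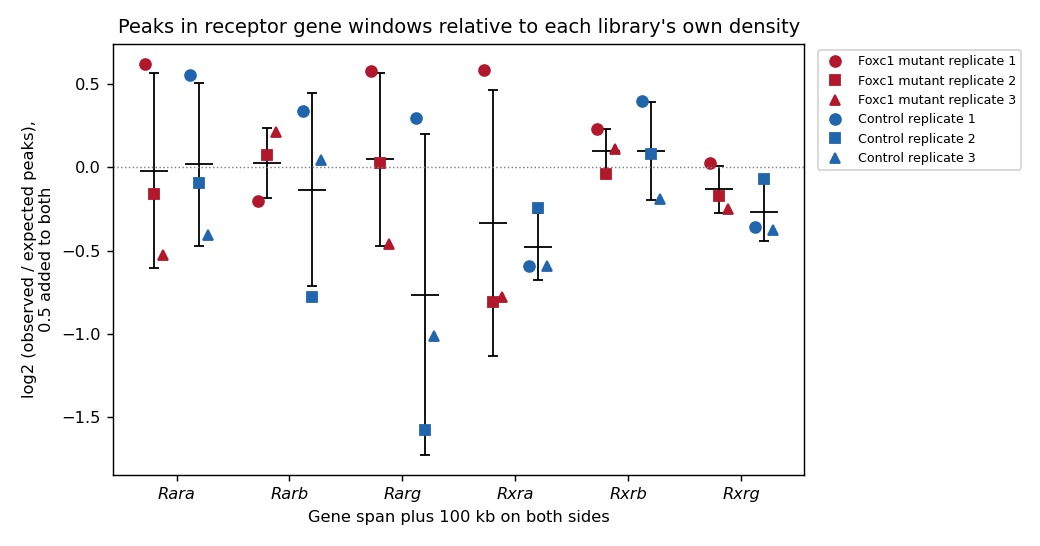
Log2 ratio of observed to expected peaks, with 0.5 added to both, in the window of each receptor gene. Red symbols are the 3 Foxc1 mutant libraries, blue symbols the 3 control libraries, and black bars the mean ± SD; the genotypes overlap for every gene, and Rarg has the widest spread, down to −1.58 in control replicate 2, where its window held no peak.

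The 6 windows held about as many peaks, and peaks about as tall, as other windows of their width. For each gene and library the count was set beside evenly spaced windows of the same width, 50 kb apart, on chromosomes 1 to 19 and X. In 0 of the 36 gene and library pairs was the count within the upper 5% of those windows, and in 1, Rxra in mutant replicate 2, within the lower 5%. The upper 20% held 3 pairs and the lower 20% held 4. Some pairs could not fall in the lower tail even with no peak. In control replicate 2, 28.0% to 39.6% of the even windows were empty for all genes but Rarb. In control replicate 3, 6.99% to 10.5% were empty for Rara, Rarg, Rxrb and Rxrg. The highest peak was within the upper 5% in 1 pair, that of Rxrg in mutant replicate 1. On the low side, 97.5% and 97.2% of windows held one at least as tall for Rarb in mutant replicate 1 and control replicate 2. In mutant replicate 2 it was 96.8% for Rxrg and 96.2% for Rarg. Of the peaks in the 6 windows, 65.3%, 62.2% and 75% reached the median height of the library in mutant replicates 1, 2 and 3, against 63.9%, 70.3% and 75.9% of all peaks. In the mutant libraries the tallest peak of any of the windows had 8, 8 and 9 steps in replicates 1, 2 and 3, while the libraries reached 300, 309 and 267 steps. In the control libraries these were 17, 3 and 3 steps against 248, 9 and 8 steps. The median width was 669, 743 and 711 bp in the windows and 679, 735 and 737 bp in the whole lists of mutant replicates 1, 2 and 3, and 2386, 355 and 274 bp against 2326, 304 and 260 bp in control replicates 1, 2 and 3.

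**Figure D4:**
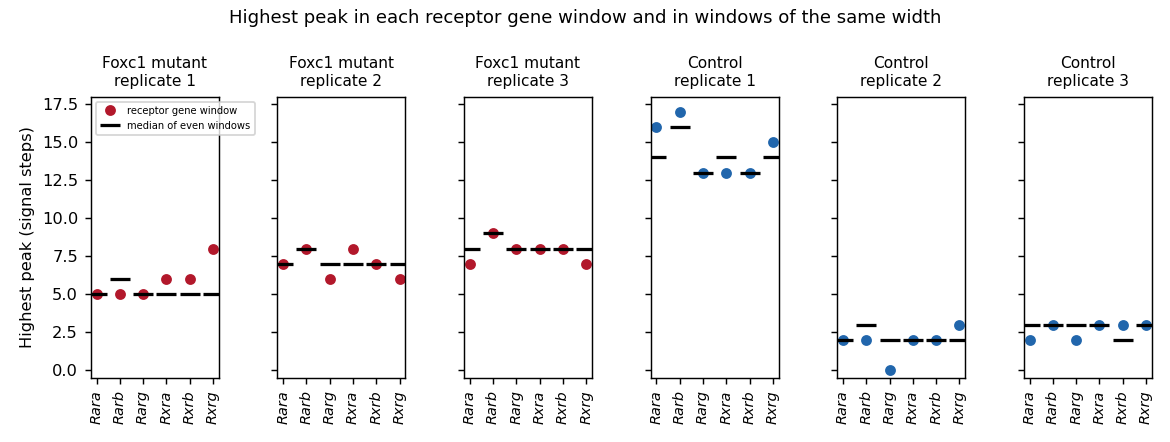
Height in signal steps of the highest peak in each receptor gene window (coloured points) and the median highest peak of evenly spaced windows of the same width (black bars), one panel per library. The points stay close to the bars, the farthest being Rxrg in mutant replicate 1 with 8 steps against a median of 5; the point at 0 marks Rarg in control replicate 2, with no peak.

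Having a peak at all depended on the library. All 6 windows held at least 1 peak in each library except control replicate 2, where 5 did; the background was 95.7%, 97.8% and 97.6% of all genes in mutant replicates 1, 2 and 3, and 96%, 60.1% and 88.9% in control replicates 1, 2 and 3. A peak lay within 5 kb of a gene end for 5, 6 and 6 of them in the mutant and 5, 0 and 1 in the control libraries, against 32.3%, 90.2% and 91.6% and 58.4%, 6.65% and 16.1% of all genes. Mutant replicate 1 had the count farthest above its background share. When each list was cut to its 11869 peaks of highest total signal, the windows held 13, 3 and 6 peaks in mutant and 13, 6 and 9 in control replicates 1, 2 and 3, where 9.17 were expected in each. Within 5 kb of a gene end 1, 1 and 0 of the 6 genes had such a peak in the mutant and 1, 0 and 0 in the control libraries, against 8.13%, 7.34% and 10.4% and 14%, 6.65% and 6.43% of all genes. At least 1 such peak in the window was found for 6, 3 and 4 of the 6 genes in the mutant and 6, 5 and 4 in the control libraries, against 62%, 52.8% and 48.6% and 64.1%, 60.1% and 60.9% of all genes. Rarb had 2, 1 and 3 of these peaks in mutant and 4, 2 and 6 in control replicates 1, 2 and 3, or 2 ± 1 and 4 ± 2 (SD, n = 3 each, exact permutation p = 0.3), and the groups overlapped. The other genes had 0 to 3 in each library, with exact permutation p between 0.7 and 1.

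Of the regions shared by 3 or more libraries, 9 lay over a receptor gene and the others beside one. When overlapping peaks of the 6 lists were merged, the windows held 605 regions, of which 30 (4.96%) were called in 3 or more libraries, against 5.25% of all 805693 regions. A region could join peaks that did not overlap one another but each touched a broader peak of another library. Of the 30, 15 were in the Rarb window. 8 of them lay inside Rarb, 5 over Top2b and 2 beyond the gene. A single region lay over Rara, at chr11:98927047-98929502, with 4 and 7 steps in mutant replicates 2 and 3 and 11 steps in control replicate 1. Its 2 mutant peaks did not overlap each other and were joined by that of control replicate 1. The usual makeup was mutant replicates 2 and 3 with control replicate 1, the libraries that cover the most sequence, in 20 of the 30 (66.7%, against 56.4% of all regions called in 3 or more libraries). In 2 of them (6.67%, against 14.1% of all such regions) the 3 mutant libraries had a peak and no control did: chr14:16728769-16729905 inside Rarb (3, 5 and 4 steps) and chr2:27635717-27637154 upstream of Rxra (3 steps in each).

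Regions called in 4 libraries numbered 5, or 0.826% of those in the windows, against 0.581% of all regions called in 4 or more, and none lay over a receptor gene. They were at chr11:99046497-99049041 over Igfbp4, a binding protein of insulin-like growth factors, at chr14:16424032-16427345 over Top2b, at chr17:34004592-34008484 and chr17:34026693-34029375 upstream of Rxrb, and at chr1:167713083-167717015 over Lmx1a. Over Top2b the heights were 4, 4 and 6 steps in the mutant libraries and 6 steps in control replicate 1. The Rxrb region centred at −25.3 kb had 6, 5 and 5 steps in the mutant libraries and 10 in control replicate 1. In the Top2b region and both Rxrb regions, the peaks of the mutant libraries did not all overlap one another. No region in the windows was called in all 3 control libraries. Of the 6 peaks of control replicate 2 in the windows, 2 overlapped a peak of control replicate 3, against 10.02% of all its peaks.

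Genes that work with these receptors were also set between the genotypes. Of 23 cofactors and receptors that pair with retinoid X receptors, 0 were called higher and 0 lower by limma, 14 differences were positive and 9 negative, and their median was 0.14. The 2 largest were those of Ncor1, a corepressor that unliganded receptors recruit (log2 difference 1.22, limma adjusted p = 0.847), and Thra, a thyroid hormone receptor (0.82). The 2 lowest were those of Ppard, a fatty acid receptor (−1.01, limma adjusted p = 0.847), and Vdr, the vitamin D receptor (−0.58). Ncor1 was the only one of the 23 whose groups did not overlap, which held for 11.1% of all genes. Its log2 ratios were 0.50, 0.21 and 0.24 in mutant and 0.11, −2.02 and −0.81 in control replicates 1, 2 and 3. Control replicate 1 was thus close to the mutant libraries, and the lowest value was that of control replicate 2, the shortest list. Genes with peak densities most like those of the receptors over the 6 libraries, by Euclidean distance of the log2 ratios, were Popdc2 and Ppp1r37 for Rara, Dync2h1 and Dner for Rarb, Ly6g6d and 7530416G11Rik for Rarg, Nos1 and Cmtr1 for Rxra, Gm36789 and Mgst3 for Rxrb, and Grtp1 and Ywhag for Rxrg, at distances between 0.0870 and 0.393.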

How the data were processed

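CUT&RUN peak lists of 6 Myc-tag libraries (3 Foxc1 mutant, 3 control) were used, and groups and replicate numbers came from the titles. Digitonin was 0.05%, per the labels' protocols. SEACR and the build mm10 are named in the submitters' processing notes; the sources used here do not give version, settings, aligner, filters or scaling. The deposited lists, 1 per library, hold the authors' total and maximum signal of each peak. Heights are the maximum signal over the smallest unit of a library, the step, of which maxima below 100 steps were whole multiples within 0.01. Depth in reads is unknown, and the isotype libraries were not analysed here.

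Peaks on 21 chromosomes were kept. Genes and promoters came from RefSeq tables of GRCm38.p6, on which mm10 is built; overlap counted from 1 bp. Expected peaks were window length times library density over 2661 Mb, and 0.5 was added to observed and expected numbers. limma 3.58.1 (R 4.3.3) with a trend was fitted over all genes with Benjamini-Hochberg adjustment, and exact permutation tests used 20 assignments. Evenly spaced windows stood in for random ones. The scripts (Python 3.11.15, numpy 2.4.6) were tested on simulated data. Named genes were the 6 members, the genes at the highest peak of a window, the 2 most alike per member, and the 2 highest and 2 lowest of the cofactor list. Named shared regions and the 4 printed promoters were chosen after their values were seen. The members and lists were chosen with earlier results of these data known. Alternatives were other flanks, constants, thresholds, measures and densities, a replicate block and leaving out libraries.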

Additional observations from a re-analysis of the deposited data

How the results depend on the processing

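In none of the settings did a receptor gene pass the limma test; the smallest adjusted p was 0.25, for Rarg without control replicate 1. Over all genes limma called 0, except 3 with equal-length lists (1 higher, 2 lower in mutant libraries) and 4 with a replicate block (4 higher). Same-numbered libraries were not treated as pairs in the main test. Their deviations correlated at −0.149, −0.0667 and −0.0391, and no library correlated best with its own number. Such correlations cannot show whether same-numbered libraries were processed together. The replicate block left the log2 differences as they were (Rarb 0.16), with an exact sign-flip permutation p = 0.75 for the inside of Rarb. Differences turned as follows. With covered length Rxrb gave −0.15. With the density of the same chromosome Rara gave 0.011 and Rxrb −0.0096. In equal-length lists Rarb gave −0.83 and Rxrb and Rxrg −0.53 each. Without flanks Rara gave 0.29 and Rarg −0.75, with 250 kb Rara 0.42 and Rxrb −0.13, and with 50 kb Rxra −0.10. In the upper part of each list, split at its median total signal, Rarb gave −0.39, Rxrb −0.24 and Rxrg −0.43, and without the highest 1% of peaks Rxrg gave −0.079. Without control replicates 2 and 3, an alternative added after seeing the data, Rarb gave −0.31, Rarg −0.25 and Rxrb −0.30. Leaving out 1 library gave ranges of −0.36 to 0.23 for Rara, −0.16 to 0.40 for Rarb, 0.41 (without control replicate 2) to 1.34 (without control replicate 1) for Rarg, −0.32 to 0.38 for Rxra, −0.14 to 0.15 for Rxrb and 0.06 to 0.23 for Rxrg. With 0.1 added in place of 0.5, Rarg gave 1.52, and with 1 added 0.55. The inside of Rarb gave −0.22 in the upper part of each list, −0.91 in equal-length lists and −0.18 to 0.53 without single libraries. In equal-length lists, the difference in peaks of −0.33 became 0.33 when ranked by max signal for Rara and Rxrb and at 5934 peaks for Rxrb, and ranged from −1.17 to 0.33 without single libraries for both. The cause of these turns was not tested. With 0.921 to 1.28 expected peaks per window in control replicate 2, and 3.80 for Rarb, a lower density there was hardly detectable. Rarg could not be fitted among the 11847 genes with a peak in every library.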
